A study of Mus musculus with 36 samples.

Results

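The genes described here make cholesterol and fatty acids in the kidney cortex of ApoE-/- mice. A list of 33 genes was looked up by symbol in the count table, and 32 of them were among its 15730 genes. Fdps, the enzyme that makes farnesyl diphosphate, was not analysed here. All mice were male, on a C57BL/6 background and without functional apolipoprotein E, a carrier of cholesterol in plasma lipoproteins. Diabetic mice had received streptozotocin, a toxin of the insulin-producing beta cells, at 6 weeks of age as 5 daily injections of 55 mg/kg, and the labels do not say what the nondiabetic mice received in its place. Mice of both states were injected 2 times a week with 0.1% ethanol vehicle, with lipoxin A4 (LXA4, a lipid mediator made while inflammation resolves) at 5 µg/kg, or with benzo-LXA4, a synthetic analog with a benzene ring, at 1.7 µg/kg. The labels describe an intervention from week 10 to week 16. Each of the 6 groups had 6 libraries, and the labels do not say that each library came from a separate mouse, so p-values measure the spread between libraries, which may be partly technical.

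Cholesterol is built from acetyl-CoA through mevalonate, isoprenoids, squalene and a series of sterol intermediates. SREBP2, the product of Srebf2, turns on the genes of this route when sterols in the endoplasmic reticulum are low. SCAP then escorts SREBP to the Golgi for activation, and the INSIG proteins hold it back when sterols are plentiful. SREBP1c, from Srebf1, does the same for fatty acid synthesis in response to insulin. In the kidney these pathways have been studied as a source of tubular and glomerular lipid in diabetes.

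Stretches of promoter are shown because SREBP works on such genes beside NF-Y, which binds the letters CCAAT. RefSeq promoter windows of GRCm38.p6, from 250 bases before to 50 bases after the transcription start, were matched by symbol for 26 of the 32 genes. The 5 stretches below are the last 150 bases before the start, 5′ to 3′ on the gene's strand. They were chosen among mevalonate and sterol enzymes with a single window outside protein-coding exons. Ebp, Hmgcs1, Mvd and Sc5d were lower in diabetic mice when the treatments were averaged, and Mvk was not. Capitals mark CCAAT on either strand (ATTGG on the printed strand when reversed) and, in Hmgcs1, the classical sterol regulatory element TCACNCCAC. The stretches lie at chrX:8193513-8193662 (minus strand), chr13:119690201-119690350 (plus), chr8:122443423-122443572 (minus), chr9:42264301-42264450 (minus) and chr5:114444119-114444268 (plus).
Ebp: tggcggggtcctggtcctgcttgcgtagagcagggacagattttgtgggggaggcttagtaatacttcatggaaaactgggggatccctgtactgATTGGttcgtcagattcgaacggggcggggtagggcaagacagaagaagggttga
Hmgcs1: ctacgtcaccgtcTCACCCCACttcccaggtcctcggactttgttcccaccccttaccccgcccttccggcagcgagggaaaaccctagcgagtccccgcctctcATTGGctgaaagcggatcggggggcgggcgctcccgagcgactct
Mvd: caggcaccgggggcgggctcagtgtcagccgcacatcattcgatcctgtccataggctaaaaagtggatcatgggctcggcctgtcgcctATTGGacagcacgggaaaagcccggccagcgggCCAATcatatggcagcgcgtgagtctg
Sc5d: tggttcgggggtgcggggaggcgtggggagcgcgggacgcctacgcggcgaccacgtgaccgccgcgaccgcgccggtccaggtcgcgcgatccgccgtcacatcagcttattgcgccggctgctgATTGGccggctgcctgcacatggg
Mvk: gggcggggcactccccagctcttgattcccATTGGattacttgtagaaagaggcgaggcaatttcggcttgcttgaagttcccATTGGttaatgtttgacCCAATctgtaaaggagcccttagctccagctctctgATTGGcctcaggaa

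CCAAT was present on at least 1 strand in the window of 21 of the 26 genes (80.8%), and in 42.2% of 11420 genes of the count table with a window. Over all 32851 windows the share was 37.4%. It was in 13 of the 15 genes with a window that were lower in diabetic mice in the averaged comparison, and in 8 of the 11 that were not. The printed stretches hold 1 match in Ebp, Hmgcs1 and Sc5d, 2 in Mvd and 4 in Mvk, so the letters were also found in the gene that did not pass the test. TCACNCCAC was found in Hmgcs1 alone, and in 1.24% of all windows. A GC box, GGGCGG, was in 21 of the 26 genes against 64.9% of the genes of the count table and 35.7% of all windows. The E-box CACGTG was in 6, against 11.1% of the genes of the count table and 7.15% of all windows. These are matches of letters on both strands and not measured binding sites.

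Total counts per library ran from 8896193 to 43305005. Proximal tubule markers were all measured (10 of 10) and summed to between 10860 and 20900 CPM over the libraries (CPM being the count scaled to a common library size, with trimmed-mean normalization). Libraries that stand apart touch several results. In diabetic LXA4 replicate 6, 3 noncoding RNA genes (Gm26917, Gm42418 and Gm23935) took 55.6% of the counts, in nondiabetic vehicle replicate 3 they took 16.6%, and elsewhere they took at most 6.48%. Nondiabetic benzo-LXA4 replicate 1 had the highest levels of brown fat markers, given with Fasn, and is called the brown fat library. Lower levels of Ucp1, at 1 CPM or more, were found in 5 other libraries.

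Per length of exon, the levels of the genes spanned a wide range in nondiabetic vehicle mice. Hmgcs1, which makes HMG-CoA, was the most abundant at 102 ± 8.73 RPKM (reads scaled by exon length and library size, mean and SD, n = 6). Cyp51, the lanosterol demethylase, followed at 40.3 ± 9.05 RPKM. Scd1, which puts a double bond into saturated fatty acids, stood at 29.2 ± 10.1, and Acly, which makes cytosolic acetyl-CoA from citrate, at 28.1 ± 1.27 RPKM. Lss, which closes the sterol rings, was the lowest at 2.04 ± 0.449 RPKM, next to Tm7sf2, a sterol reductase, at 2.1 ± 0.446. In this order only 4 neighbouring steps were larger than the sum of both SDs, those after Hmgcs1, Acly, Acat2 and Acaca. Between Ebp in 7th place (15.7 RPKM) and Acaca in 30th (3.29 RPKM), no neighbours differed beyond that spread. Exons of Tm7sf2 overlap those of Vps51 on the same strand, so its counts are uncertain. Exons of Cyp51, Hmgcs1, Idi1, Fdft1 and Srebf1 overlap genes on the other strand (Akap9, Gm48342, Gm48574, Ctsb and Rai1), and so do those of Lss, Scap and Elovl6 (4930483K19Rik, 5830462I19Rik and Gm35986). The strand setting of the counting is not given in the sources used here. In GRCm38, Cyp51 lies at chr5:4081145-4104746, Idi1 at chr13:8885501-8892451, Ebp at chrX:8185329-8193512, Msmo1 at chr8:64718139-64733792 and Fasn at chr11:120805846-120824547 (GENCODE M21).

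The first comparison asks how diabetes changed these genes under vehicle. Of the 32 genes, 3 were lower in diabetic mice and 0 were higher at an adjusted p under 0.05 (edgeR quasi-likelihood test, Benjamini-Hochberg over 15726 genes). Of all genes tested, 2.16% were lower and 3.44% were higher. The median log2 difference was −0.18 over the members and −0.01 over all genes. In bulk tissue, fewer cells of a type and less RNA per cell cannot be told apart, here and in what follows.

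Cyp51 had 138, 163 and 244 CPM (lowest, median and highest library) in nondiabetic and 92.7, 133 and 144 CPM in diabetic vehicle mice. The ranges met between 138 and 144 CPM, and every diabetic library lay below the nondiabetic median. The log2 difference was −0.49 (SE 0.127, adjusted p = 0.017, edgeR). Ebp, the sterol isomerase, had 31.9, 36.1 and 39.9 CPM in nondiabetic and 20.9, 27.2 and 32.8 CPM in diabetic mice. Only the top of the diabetic range reached into the nondiabetic one, and the log2 difference was −0.4 (SE 0.122, adjusted p = 0.0477, edgeR). Fads2, the delta-6 desaturase of polyunsaturated fatty acids, had 63.4, 76.6 and 84.5 CPM in nondiabetic and 45.2, 57.5 and 70.5 CPM in diabetic mice (log2 −0.41, SE 0.116, adjusted p = 0.0291, edgeR). These calls were near the threshold. Leaving out nondiabetic replicate 3, or either of diabetic replicates 4 and 5, ended the Cyp51 call. For Ebp this held for 5 nondiabetic replicates (1, 2, 3, 5, 6) and 4 diabetic ones (3, 4, 5, 6), and for Fads2 for 3 of each (nondiabetic 1, 5, 6 and diabetic 3, 4, 5). Without diabetic replicate 4 or 5 the count was 0. The shares of all genes called in those fits are not given here, so no change particular to the members is read.

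Hmgcs1 did not pass the test under vehicle. It had 430, 464 and 527 CPM in nondiabetic and 259, 350 and 439 CPM in diabetic mice, a log2 difference of −0.45 (95% interval −0.78 to −0.12, adjusted p = 0.0941, edgeR). In 5 of 6 diabetic libraries it was below the lowest nondiabetic one. Mvd, which decarboxylates mevalonate diphosphate, had a log2 difference of −0.48 (adjusted p = 0.102, edgeR), and Tm7sf2 one of −0.34 (adjusted p = 0.0846, edgeR). Sqle, the squalene epoxidase, had a median of 52.4 CPM in nondiabetic and 60.6 CPM in diabetic mice (log2 0.18, 95% interval −0.15 to 0.5). Fdft1, the squalene synthase, had a median of 21 CPM and then 26.6 CPM (log2 0.16, 95% interval −0.17 to 0.48). In both genes the ranges of the groups overlapped.

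**Figure D1:**
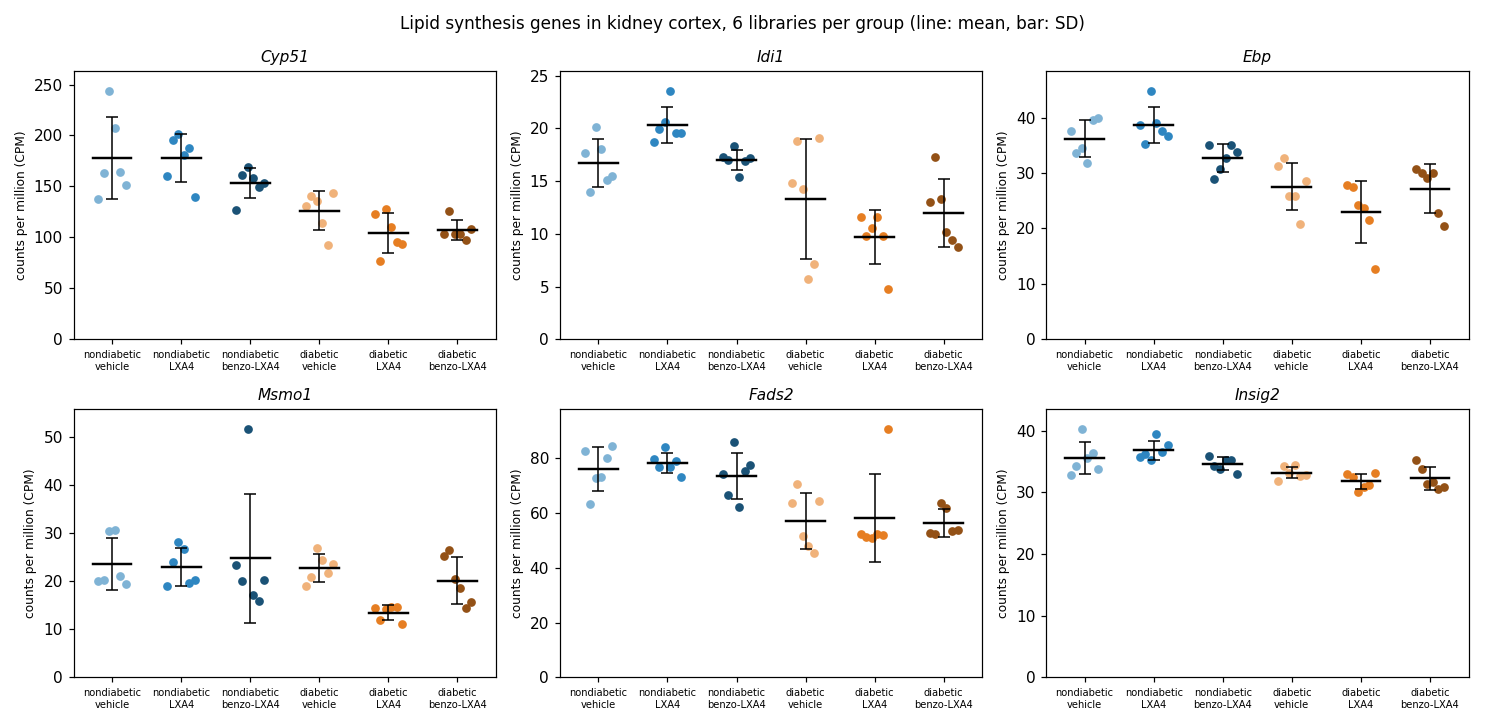
CPM of Cyp51, Idi1, Ebp, Msmo1, Fads2 and Insig2 in each library (points) of the 6 groups, with the group mean (line) and SD (bar). Cyp51 is lower in the diabetic group under each treatment, and Msmo1 in diabetic LXA4 libraries lies between 11.1 and 14.7 CPM, under all diabetic vehicle libraries.

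Among LXA4-treated mice the difference with diabetes reached more of these genes. In diabetic mice 14 of the 32 were lower and 1 was higher, while 12.3% of all genes tested were lower and 15.4% were higher. The median log2 difference was −0.37 over the members and 0.05 over all genes. By role, 4 of 6 mevalonate pathway genes, 6 of 11 squalene and sterol enzymes, 2 of 6 genes of SREBP control and sterol transport, 0 of 3 fatty acid synthesis genes and 2 of 6 desaturases and elongases were lower. In 7 genes every diabetic library was below every nondiabetic one, against 7.18% of all genes: Idi1, Cyp51, Msmo1, Nsdhl, Ebp, Insig2 and Fads1.

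Idi1, the isopentenyl diphosphate isomerase, had 18.7, 19.8 and 23.6 CPM in nondiabetic and 4.72, 10.2 and 11.6 CPM in diabetic LXA4-treated mice. The gap between the groups was wider than the range inside the nondiabetic group, and the log2 difference was −1.03 (SE 0.207, adjusted p = 0.000711, edgeR). Cyp51 had 140, 184 and 202 CPM and then 76.6, 103 and 128 CPM (log2 −0.77, SE 0.127, adjusted p = 0.000105, edgeR). Ebp fell from 35.3, 38.2 and 44.9 CPM to 12.8, 24 and 27.9 CPM (log2 −0.73, adjusted p = 0.000112, edgeR), with diabetic replicate 6 at the bottom. Msmo1, which removes methyl groups from sterols, had 19, 22.2 and 28.2 CPM in nondiabetic and 11.1, 14.3 and 14.7 CPM in diabetic mice. All 6 diabetic libraries lay below the nondiabetic range (log2 −0.75, SE 0.205, adjusted p = 0.0075, edgeR). Nsdhl, the next enzyme of the same demethylation, differed by −0.58 (adjusted p = 0.000672, edgeR), with no overlap between 41.5 CPM at the lowest nondiabetic and 34.5 CPM at the highest diabetic library.

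Insig2, which retains SREBP in the endoplasmic reticulum, showed a small difference with little spread. It had 35.3, 36.4 and 39.5 CPM in nondiabetic and 30, 31.8 and 33.1 CPM in diabetic LXA4-treated mice. The groups did not overlap, and the log2 difference was −0.22 (SE 0.049, adjusted p = 0.00194, edgeR). Insig1, the isoform that SREBP itself induces, had 27.2, 33.6 and 41.6 CPM and then 18.4, 22.8 and 31 CPM, with a log2 difference of −0.52 that did not pass the test (adjusted p = 0.0772, edgeR).

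Both desaturases of polyunsaturated fatty acids were lower as well. Fads1, the delta-5 desaturase, had 63.1, 69.6 and 77.4 CPM in nondiabetic and 23.1, 49.4 and 51 CPM in diabetic LXA4-treated mice (log2 −0.62, SE 0.124, adjusted p = 0.00064, edgeR). No diabetic library reached the nondiabetic range, and replicate 6 was far below the other diabetic libraries. Fads2 differed by −0.44 (adjusted p = 0.00602, edgeR), and there the same replicate 6 was the exception at 90.7 CPM, above all other libraries of both groups.

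The other 6 genes called lower among LXA4-treated mice overlapped between the groups. Acat2, which makes acetoacetyl-CoA, had 49.2, 53.1 and 62 CPM in nondiabetic and 24.1, 39.9 and 50.1 CPM in diabetic mice (log2 −0.47). Hmgcs1 had 440, 475 and 508 CPM and then 182, 355 and 452 CPM (log2 −0.5). In both genes the diabetic median lay below the nondiabetic range. Mvd had 22.4, 27.2 and 33.8 CPM and then 13.6, 18.3 and 29 CPM (log2 −0.5), and Tm7sf2 7.56, 9.12 and 11 CPM and then 4.99, 6.97 and 8.43 CPM (log2 −0.41). Sc5d, a sterol desaturase, had 24.1, 26.8 and 32.9 CPM and then 4.96, 21.2 and 25.9 CPM (log2 −0.47), the lowest value again in replicate 6. Stard4, a carrier of sterols inside cells, had 65.1, 71 and 75.2 CPM and then 39.1, 53.8 and 67.4 CPM (log2 −0.39). Their adjusted p ran from 0.0123 to 0.0364 (edgeR).

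Pmvk, the phosphomevalonate kinase, was the 1 gene called higher, at 4.03, 4.44 and 4.88 CPM in nondiabetic and 4.76, 5.22 and 22.7 CPM in diabetic LXA4-treated mice. The highest value belonged to diabetic replicate 6, the library dominated by noncoding RNA, and the other 5 diabetic libraries reached at most 6.41 CPM. The log2 difference was 0.74 (adjusted p = 0.0455, edgeR), and without the pair of libraries rich in noncoding RNA it was 0.25 (adjusted p = 0.182, edgeR). Without that pair 15 members were still called, all lower, with Pmvk lost and Srebf2 gained (−0.28, adjusted p = 0.00722, edgeR), and the lower calls over all genes went from 1938 to 3041 and the higher ones from 2415 to 2755. In diabetic replicate 6, 13 of the 32 members had their lowest value of the whole series and 3 their highest. How many of all genes were lowest or highest there was not counted. The Pmvk call was also lost without any 1 of the 6 nondiabetic libraries. Leaving out 1 library ended the Mvd call for nondiabetic replicates 2, 3, 4 and 6 and diabetic replicates 3, 4 and 5. It ended the Sc5d call for nondiabetic replicates 3, 4 and 5 and diabetic replicates 3 and 5. Of the 12 libraries left out in turn, diabetic replicate 6 was the 1 whose absence ended the Hmgcs1 call (adjusted p = 0.0541, edgeR). With only the LXA4-treated groups in the fit 10 members were called, against 15.1% of all genes. Pmvk, Mvd, Sc5d, Hmgcs1, Acat2, Stard4 and Tm7sf2 were then lost, and Insig1 and Acly gained, so that 5 of the 17 mevalonate and sterol enzymes were lower in place of 10. Without the 6 libraries that had Ucp1 at 1 CPM or more, 14 members were called, against 23.2% of all genes. Pmvk, Hmgcs1 and Stard4 were then lost. Acly, lower in diabetic mice, and Elovl6, higher in diabetic mice, were gained.

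Among benzo-LXA4-treated mice 3 members were lower in diabetic mice and 0 higher, while 1.25% of all genes were lower and 2.81% were higher. The called genes were Cyp51, Fasn and Scd1. The median log2 difference was −0.27 over the members and −0.01 over all genes. Without the brown fat library these medians were −0.17 and −0.01. Cyp51 had 126, 156 and 170 CPM in nondiabetic and 97.5, 103 and 126 CPM in diabetic mice, without overlap by a margin of less than 1 CPM (log2 −0.52, SE 0.127, adjusted p = 0.0144, edgeR). Without overlap, 2 members were lower (Cyp51 and Scd1) against 2.63% of all genes. Fads2 had a log2 difference of −0.39 (adjusted p = 0.0507, edgeR) and Idi1 one of −0.5 (adjusted p = 0.178, edgeR). The count went to 10, all lower, without the pair of libraries rich in noncoding RNA, neither of which was a benzo-LXA4 library, and the calls over all genes to 962 higher and 944 lower. Omitting nondiabetic replicate 4 gave 6 calls, and omitting replicate 5 or 6 gave 5. For these omissions the shares of all genes called are not given here, so no change particular to the members is read from them.

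Side by side, the 3 diabetes comparisons rest on different libraries. The log2 difference was negative in all 3 for 22 of the 32 members and positive in all 3 for 1, Fdft1. The same count over all genes was not made. Under vehicle, LXA4 and benzo-LXA4 taken singly it was negative for 26, 26 and 29 members. Of the 15726 genes, 8232, 6976 and 8098 were negative in turn. Cyp51 was the only member called lower under every treatment, and 15 members were called under none. The interactions, which test whether the difference with diabetes changes with a compound, called 0 members. For LXA4, 0.248% of all genes were called in the interaction, and 6 of 32 members had an unadjusted p under 0.05 (18.8%, against 16.5% of all genes). Of these, Insig1 had an interaction of −0.82 (95% interval −1.46 to −0.18, adjusted p = 0.206, edgeR), Msmo1 one of −0.7 and Idi1 one of −0.7 (adjusted p = 0.231 and 0.237, edgeR). For benzo-LXA4, 0% of all genes were called, and 3 members had an unadjusted p under 0.05 (9.38%, against 4.28% of all genes). The larger number of calls among LXA4-treated mice was therefore not shown to differ from that under vehicle for any single member.

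**Figure D2:**
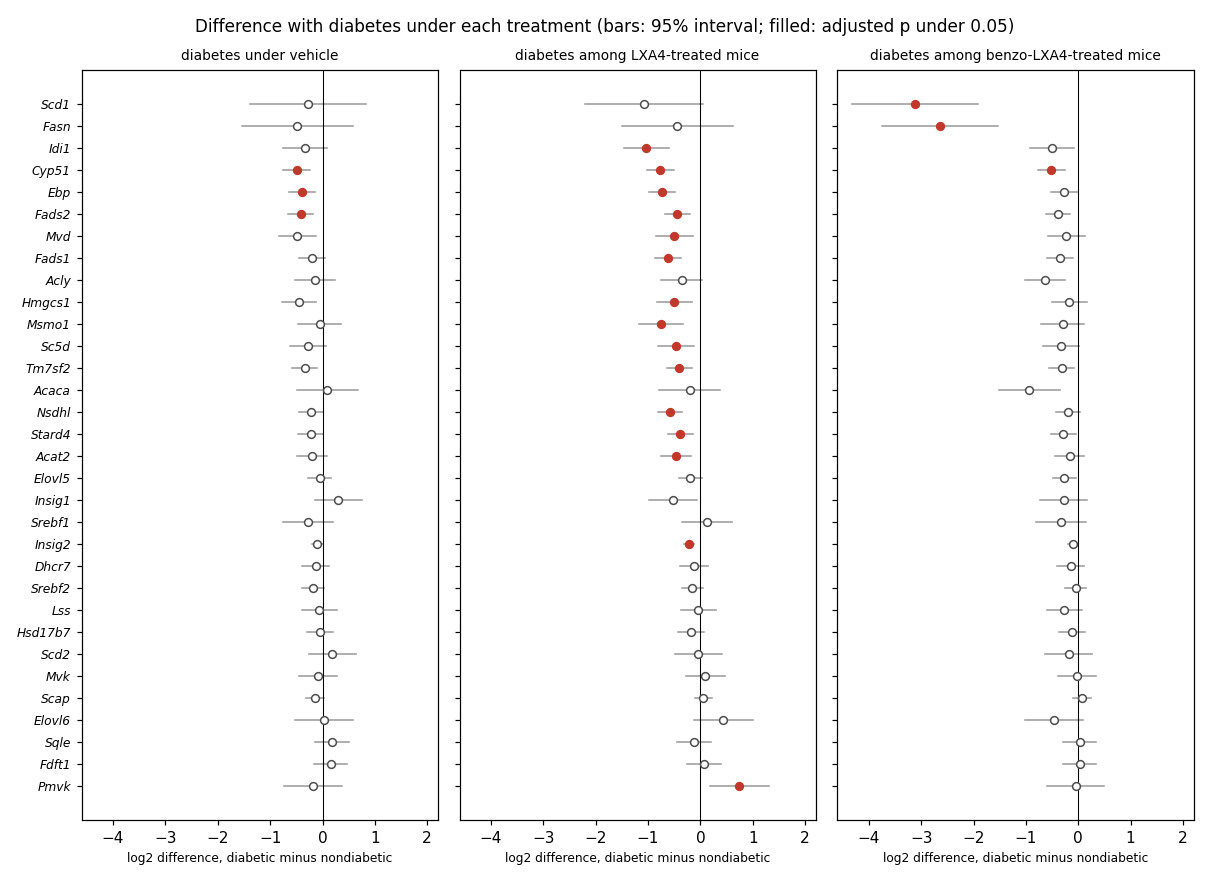
Log2 difference of diabetic from nondiabetic libraries (x axis) for each of the 32 genes (rows) under vehicle, LXA4 and benzo-LXA4, with 95% intervals and filled points where the adjusted p was under 0.05. Under LXA4 the filled points lie left of 0 except Pmvk, and Fasn and Scd1 under benzo-LXA4 stand apart with wide intervals.

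With the 3 treatments averaged, 18 of the 32 members were lower in diabetic mice and 0 were higher, while 16.6% of all genes were lower and 18.8% were higher. The median log2 difference was −0.29 over the members and 0.01 over all genes. Without the brown fat library these medians were −0.19 and 0.01. Of the mevalonate pathway, Idi1 (−0.62), Mvd (−0.4), Hmgcs1 (−0.37) and Acat2 (−0.28) were lower, and Mvk, the mevalonate kinase, was not (−0.01, 95% interval −0.22 to 0.21, adjusted p = 0.976, edgeR). Of the sterol enzymes, Cyp51 had the smallest adjusted p (log2 −0.59, SE 0.073, adjusted p = 3.22e-07, edgeR). Ebp (−0.46), Msmo1 (−0.37), Sc5d (−0.36), Tm7sf2 (−0.36) and Nsdhl (−0.33) were lower too.

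Other enzymes of the sterol route did not pass the test. Fdft1 (0.08, 95% interval −0.1 to 0.27), Sqle (0.03, −0.16 to 0.22), Lss (−0.13, −0.32 to 0.07), Hsd17b7 (−0.12, −0.26 to 0.03) and Dhcr7 (−0.13, −0.28 to 0.02) each had an interval that included 0. The first 3 of these commit isoprenoids to squalene and lanosterol, Hsd17b7 is a sterol keto reductase, and Dhcr7 makes cholesterol from 7-dehydrocholesterol. Fdft1 was called higher in 1 of 36 fits that left out a library, at 0.17 (adjusted p = 0.0453, edgeR), when nondiabetic benzo-LXA4 replicate 3 was omitted. Sqle had 42, 52.4 and 73.6 CPM in nondiabetic vehicle and 54.2, 60.6 and 72.2 CPM in diabetic vehicle mice. In LXA4-treated mice it had 49.8, 55.5 and 60.6 and then 32.7, 55.6 and 64.5 CPM, and in benzo-LXA4-treated mice 47.6, 51.9 and 91.5 and then 47.6, 57.2 and 74.2 CPM. The groups overlapped under every treatment.

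Of the regulators, the genes of both SREBPs and of SCAP did not pass the test. Srebf2 had 91.2, 102 and 132 CPM in nondiabetic and 78.9, 92.9 and 105 CPM in diabetic vehicle mice, and the averaged log2 difference was −0.13 (adjusted p = 0.0858, edgeR). Without the pair of libraries rich in noncoding RNA it was −0.15 and passed (adjusted p = 0.00741, edgeR). Srebf1 had an averaged log2 difference of −0.16 (95% interval −0.43 to 0.11), with single high libraries of 96.4 CPM in nondiabetic vehicle (replicate 3), 95 CPM in nondiabetic benzo-LXA4 (replicate 3) and 95.2 CPM in diabetic LXA4 mice (replicate 6). Scap was at −0.01 (95% interval −0.1 to 0.09). Insig2 (−0.14, adjusted p = 0.000323, edgeR) and Stard4 (−0.3, adjusted p = 0.000862, edgeR) were lower, and Insig1 did not pass the test (−0.17, adjusted p = 0.319, edgeR). Counts of mRNA do not show how much SREBP was processed.

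Of the fatty acid genes, 6 of 9 were lower in the averaged comparison. These were Acly (−0.38), Fasn (−1.19), Scd1 (−1.49), Fads1 (−0.39), Fads2 (−0.42) and Elovl5, an elongase of polyunsaturated fatty acids (−0.17, adjusted p = 0.0324, edgeR). Fads2 had the smallest adjusted p of these (1.88e-05, edgeR). Acaca, the acetyl-CoA carboxylase (−0.35, adjusted p = 0.0966, edgeR), Scd2 (−0.01) and Elovl6 (0), which elongates palmitate, did not pass the test. Without the 6 libraries that had Ucp1 at 1 CPM or more, Elovl6 was called, higher in diabetic mice. In that fit 32.1% of all genes were called. The values of Fasn, Scd1, Acly, Acaca and Elovl6 depend on 1 library, as follows.

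Fasn, the fatty acid synthase, was checked against brown fat RNA. In nondiabetic benzo-LXA4 replicate 1 it had 2665 CPM, while the other 35 libraries lay between 67.4 and 284 CPM. Scd1 had 2710 CPM there and 36.5 to 420 CPM elsewhere. Acly had 494 CPM against at most 166, Acaca 321 CPM against at most 82.9 and Elovl6 149 CPM against at most 72.1 in the other libraries. The same library had 123 CPM of Ucp1, the uncoupling protein that defines brown fat, against at most 11.4 CPM elsewhere, and Ucp1 was at 0 in 17 of the 36 libraries. Cidea had 65.6 CPM there and at most 5.96 elsewhere, and Adipoq, made by all fat cells, 37.4 CPM and at most 2.55. Of 9 brown fat markers 6 were measured, and their summed level was 285 CPM in this library. In the others it was 4.02 to 9.44 CPM in nondiabetic vehicle, 4.88 to 29.8 in nondiabetic LXA4, 4.47 to 21.9 in the other nondiabetic benzo-LXA4, 3.96 to 8 in diabetic vehicle, 2.36 to 16.9 in diabetic LXA4 and 3.16 to 4.76 CPM in diabetic benzo-LXA4 libraries.

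Relative to the median of the other 5 libraries of its group, Fasn was 26.2 times higher, Scd1 18.9 times, Acaca 5.81 times, Elovl6 3.71 times and Acly 3.25 times. Of the 17 mevalonate and sterol enzymes, 0 were more than 2 times higher. Cyp51 was at 0.798 and Sqle at 0.95 of the median, and Hmgcs1 at 1.18. Of the control genes, Insig1 was at 2.9 times. The part of brown fat RNA in the level of each gene was not tested.

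**Figure D3:**
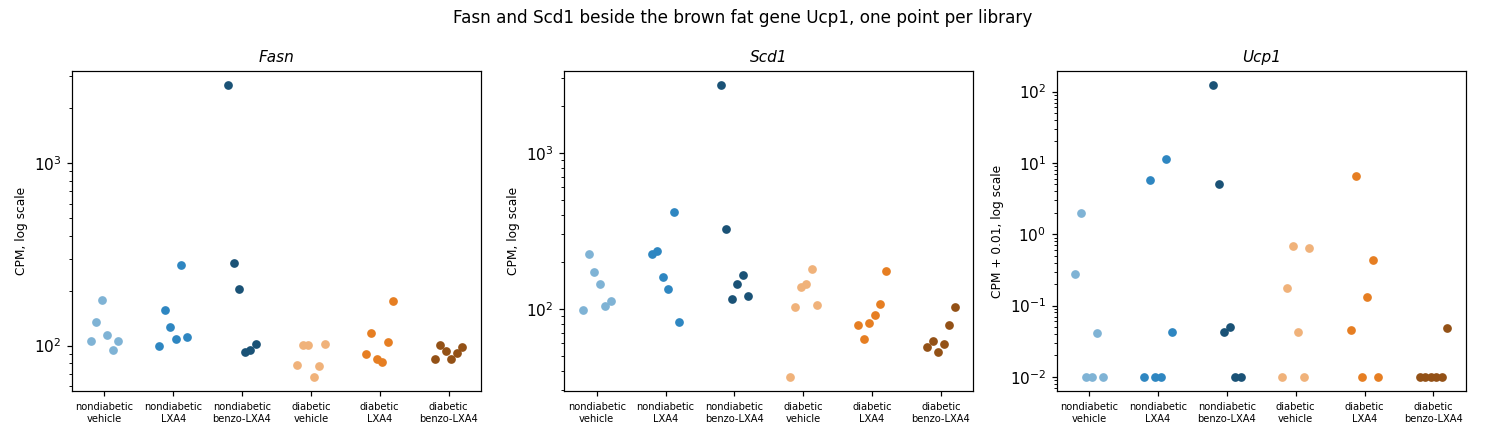
Fasn and Scd1 in CPM and Ucp1 in CPM plus 0.01, all on log axes, 1 point per library by group. The same nondiabetic benzo-LXA4 library is highest in all 3 panels, at 2665 CPM for Fasn, 2710 for Scd1 and 123 for Ucp1.

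Fasn in benzo-LXA4-treated mice had 92.7, 153 and 2665 CPM in nondiabetic and 84.4, 92.4 and 100 CPM in diabetic mice. The ranges overlapped between 92.7 and 100 CPM. The log2 difference was −2.64 (SE 0.547, adjusted p = 0.00371, edgeR), and without replicate 1 it was −0.75 (SE 0.259, adjusted p = 0.12, edgeR), so this call rests on 1 library. Scd1 had 116, 154 and 2710 CPM in nondiabetic and 53, 60.8 and 102 CPM in diabetic mice, without overlap (log2 −3.12, SE 0.593, adjusted p = 0.00148, edgeR). Without replicate 1 it was −1.34 (adjusted p = 0.0287, edgeR). Without all 6 libraries that had Ucp1 at 1 CPM or more, of which 5 were nondiabetic, it was −0.99 (adjusted p = 0.0932, edgeR), and Fasn was −0.42 (adjusted p = 0.392, edgeR). Acly in the same comparison went from −0.64 (adjusted p = 0.0509, edgeR) to −0.17 (adjusted p = 0.274, edgeR) without replicate 1, and Acaca from −0.94 to −0.18.

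All groups share 1 estimate of the spread, so leaving out this library also lowered the SE of these genes in the other comparisons. Among LXA4-treated mice Acly had a log2 difference of −0.36 with both fits, with an SE of 0.191 and an adjusted p of 0.155 (edgeR) with all libraries and an SE of 0.071 and an adjusted p of 0.000628 (edgeR) without it. Scd1 was at −1.08 with both (adjusted p = 0.142 and 0.0168, edgeR). In that comparison 18 members were then called, with Acly, Scd1 and Insig1 added, and 27.8% of all genes, against 27.7% with all libraries. Without the 6 libraries with Ucp1, Scd1 was at −0.49 (adjusted p = 0.257, edgeR) and Acly at −0.34 (adjusted p = 0.00805, edgeR). In the averaged comparison Fasn was −1.19 with all libraries, −0.56 without replicate 1 (adjusted p = 0.00346, edgeR) and −0.31 without the 6 libraries (adjusted p = 0.0476, edgeR). Scd1 was −1.49, −0.9 and −0.53 in turn (adjusted p = 0.0208 in the last, edgeR). Elovl5 was lost without replicate 1, and also without nondiabetic vehicle replicate 2 or 4, diabetic vehicle replicate 5 or diabetic benzo-LXA4 replicate 3. Of the sterol genes, Cyp51 was at −0.61 without replicate 1 and −0.57 without the 6 libraries, and Ebp at −0.46 and −0.51. The cut by Ucp1 kept some diabetic libraries that held other fat markers. Adipoq was at 1.96 CPM in diabetic LXA4 replicate 5 and 1.47 CPM in diabetic vehicle replicate 3, both kept. It was at 1.26 CPM in nondiabetic vehicle replicate 2, which was left out.

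Another nondiabetic benzo-LXA4 library, replicate 3, had high levels of many sterol genes. Of the 32 members, 18 were higher there than in the other 5 libraries of its group, including 8 of the 11 squalene and sterol enzymes. This was not counted over all genes, so nothing particular to the members is read from it. Msmo1 had 51.7 CPM against 16 to 23.4 in the others, Lss 45 against 16.1 to 26.8, Fdft1 43.5 against 17.1 to 25.2 and Sqle 91.5 against 47.6 to 52.7 CPM. Srebf1 had 95 CPM against 36 to 58.9. Insig1, at 76 CPM, was 2.8 times the median of the other 5 libraries, and Fasn, at 204 CPM, was 2 times. Scd1 was lowest of its group in this library, at 116 CPM. Ebp, Tm7sf2 and Sc5d were inside the range of the others. The summed brown fat markers were at 4.82 CPM and the 3 noncoding RNA genes at 3.51% of its counts, both inside the range of the other libraries. Without it, 4 members were called among benzo-LXA4-treated mice and 19 in the averaged comparison. The shares of all genes called without it are not given here, so no change particular to the members is read from these counts.

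**Figure D4:**
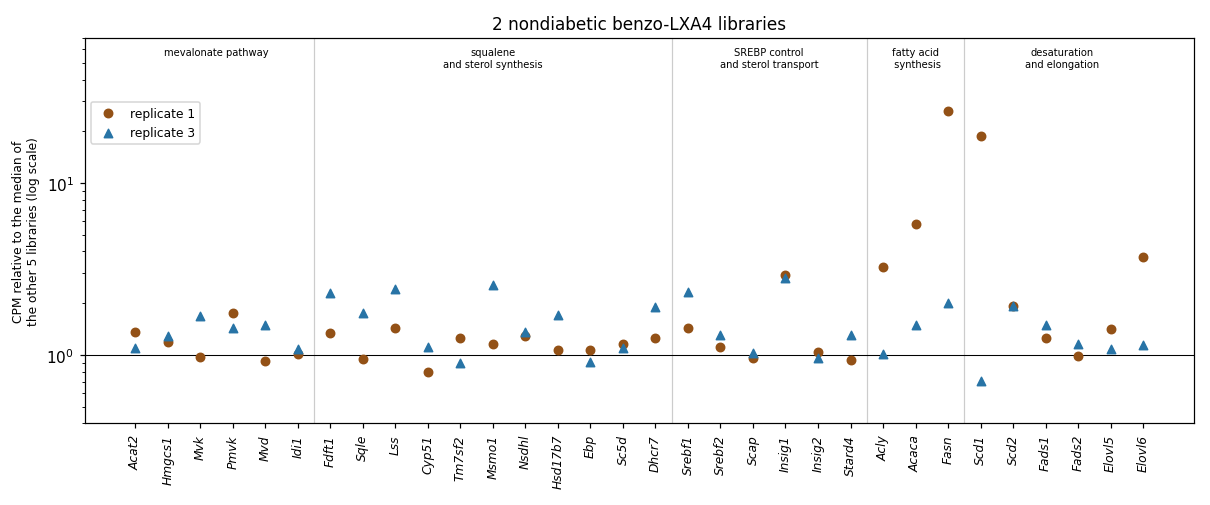
Level of each gene in nondiabetic benzo-LXA4 replicates 1 and 3 relative to the median of the other 5 libraries of the group, on a log axis, grouped by role. Replicate 1 is high in fatty acid synthesis, Scd1 and Elovl6, and replicate 3 in sterol enzymes such as Msmo1 (2.57), Lss (2.41) and Fdft1 (2.31). Insig1 is high in both (2.9 in replicate 1 and 2.8 in replicate 3), and Fasn is at 2 in replicate 3.

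The compounds were also compared with vehicle inside each state. LXA4 in diabetic mice changed 0 members at an adjusted p under 0.05 (edgeR), and 0.356% of all genes. At an unadjusted p under 0.05 there were 7 members (21.9%, against 15.7% of all genes). DESeq2 called 2, Insig1 and Msmo1, both lower, and 1.57% of all genes. Msmo1 had 18.9, 22.7 and 27 CPM in diabetic vehicle and 11.1, 14.3 and 14.7 CPM in diabetic LXA4 mice. The groups did not overlap, which held in this direction for 0.362% of all genes, and the log2 difference was −0.74 (95% interval −1.16 to −0.32, adjusted p = 0.11, edgeR). Insig1 had 30.6, 39.8 and 53.4 and then 18.4, 22.8 and 31 CPM, with an overlap of less than 1 CPM (log2 −0.78, 95% interval −1.24 to −0.33, adjusted p = 0.124, edgeR). Stard4 was at −0.33 (adjusted p = 0.192, edgeR) and Cyp51 at −0.27 (adjusted p = 0.295, edgeR). The median over the members was −0.15 and over all genes 0.01, and 27 members had a negative difference.

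Benzo-LXA4 in diabetic mice changed 0 members and 0% of all genes, with 1 member at an unadjusted p under 0.05 against 5.67% of all genes, Stard4 (−0.26, adjusted p = 0.801, edgeR). DESeq2 also called 0 members. Beside the values for LXA4, which share the same vehicle libraries and were obtained at a different dose, Msmo1 was at −0.18 (95% interval −0.58 to 0.23), Insig1 at −0.19 (−0.64 to 0.26), Idi1 at −0.14 (−0.56 to 0.27) and Cyp51 at −0.24 (−0.5 to 0.02). Set directly against LXA4 in diabetic mice, benzo-LXA4 libraries had higher Msmo1 (0.57, 95% interval 0.15 to 0.98), Insig1 (0.59, 0.13 to 1.04) and Nsdhl (0.31, 0.08 to 0.54), each with an adjusted p of 0.717 (edgeR), so 0 members were called. The doses of the compounds differ, and these intervals do not show that they act alike.

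In nondiabetic mice LXA4 changed 0 members, with 0 at an unadjusted p under 0.05 (6.15% of all genes), and benzo-LXA4 changed 0, with 4 at an unadjusted p under 0.05 (2.87% of all genes). DESeq2 called 0 in both. The 4 were Fasn (2.23), Scd1 (2.06), Acaca (0.91) and Acly (0.48), the genes raised in the brown fat library, with adjusted p from 0.617 to 1 (edgeR). Of all genes, 0% were called in either comparison. Benzo-LXA4 against LXA4 in nondiabetic mice also called 0 members, with 4 at an unadjusted p under 0.05 (8.39% of all genes), and in 2 members, Idi1 and Ebp, every benzo-LXA4 library was below every LXA4 library, against 1.06% of all genes.

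Over each library, the median of the 17 mevalonate and sterol enzymes summarises the sterol route. It is on a log2 scale relative to each gene's mean over the 36 libraries. The lowest, median and highest vehicle libraries were at −0.04, 0.08 and 0.48 in nondiabetic and at −0.24, 0.05 and 0.06 in diabetic mice. Under LXA4 they were at 0, 0.11 and 0.35 in nondiabetic and at −0.48, −0.19 and −0.07 in diabetic mice. Under benzo-LXA4 they were at −0.08, 0 and 0.47 in nondiabetic and at −0.3, −0.07 and 0.19 in diabetic mice. Only the LXA4 pair of groups did not overlap. The highest nondiabetic vehicle value came from replicate 3, which is rich in noncoding RNA, and the lowest diabetic LXA4 value from replicate 5. Diabetic LXA4 replicate 6, the other library rich in noncoding RNA, was at −0.19, inside the range of its group.

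**Figure D5:**
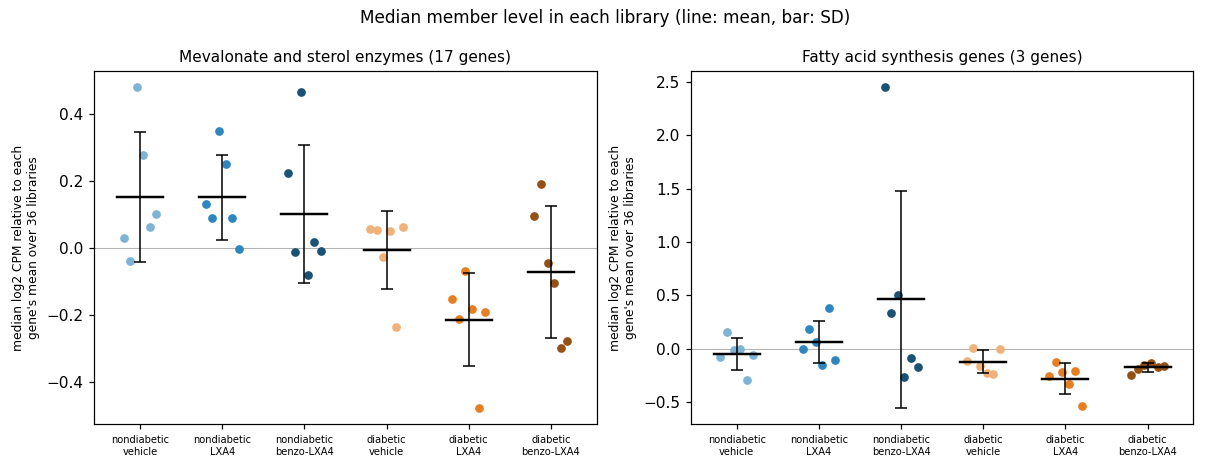
Median log2 CPM of the 17 mevalonate and sterol enzymes (left) and the 3 fatty acid synthesis genes (right) in each library, relative to each gene's mean over the 36 libraries, with group mean (line) and SD (bar). On the left diabetic LXA4 libraries lie at −0.07 or below, and on the right 1 nondiabetic benzo-LXA4 library stands at 2.45.

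Other genes of the pathway were read beside the members, 17 of a list of 20. In the averaged comparison 10 of the 17 were lower and 1 was higher in diabetic mice, against 16.6% and 18.8% of all genes. Under vehicle 2 of the 17 were lower, against 2.16% of all genes. They were Acss2, which makes acetyl-CoA from acetate (−0.44, adjusted p = 0.0251, edgeR), and Me1, which supplies NADPH (−0.53, adjusted p = 0.0275, edgeR). Slc25a1, the citrate carrier (−0.38), and Lbr, a sterol reductase of the nuclear envelope (−0.2), were lower in the averaged comparison. Thrsp, an inducer of lipogenesis (−1.32), and Pnpla3, a lipid hydrolase (−1.3), were lower as well. In the brown fat library they had 184 and 22.3 CPM, and in the other 35 libraries at most 14.1 and 3.31 CPM. Of the same list, Lpin1 was higher (0.28, adjusted p = 0.0184, edgeR). Among LXA4-treated mice 4 of the 17 were lower (Slc25a1, Me1, Elovl1 and Fads3) and 1, Acacb, was higher. Of all genes, 12.3% were lower and 15.4% were higher there. Among benzo-LXA4-treated mice 3 were lower (Mid1ip1, Pnpla3 and Thrsp), against 1.25% of all genes.

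Genes of sterol sensing by LXR and of efflux moved in both directions. Of 9 genes, 3 were higher and 3 lower in the averaged comparison, against 18.8% and 16.6% of all genes. Abca1, which exports cholesterol to apolipoprotein A-I, was higher (0.46, adjusted p = 0.000305, edgeR). It was the 1 gene of this list called under vehicle (0.66, adjusted p = 0.0119, edgeR), where 3.44% of all genes were higher. Mylip, which degrades the LDL receptor (0.32), and Npc1, a lysosomal cholesterol transporter (0.09), were higher. Nr1h3, which encodes LXR alpha (−0.28), Lpcat3, a phospholipid remodelling enzyme (−0.27), and Npc2 (−0.2) were lower.

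Markers of the proximal tubule, the most abundant cell type of the cortex, were lower in diabetic mice as well. Under vehicle the lowest and highest summed levels were 13910 and 20900 CPM in nondiabetic and 10860 and 16220 CPM in diabetic mice. Under LXA4 they were 18060 and 20220 CPM against 11920 and 16380 CPM, without overlap, and under benzo-LXA4 14770 and 18440 CPM against 11460 and 15750 CPM. Of the 10 markers, 3 were called lower under vehicle, 4 among LXA4-treated, 1 among benzo-LXA4-treated mice and 7 in the averaged comparison, where their median log2 difference was −0.36. Of all genes, 2.16%, 12.3%, 1.25% and 16.6% were lower in turn, and 18.8% were higher in the averaged comparison. Of 5 markers of the loop of Henle and distal tubule 1 was called lower in the averaged comparison, and of 8 measured macrophage and T cell markers 3 were higher. Of 5 podocyte markers 3 were higher (Nphs1, Podxl and Wt1). Of 11 measured adipocyte markers 5 were lower, of 6 measured brown fat markers 5, and of 6 liver markers 2. Of the brown fat markers 0 were called lower under vehicle, 0 among LXA4-treated and 5 among benzo-LXA4-treated mice. The last comparison holds the brown fat library on its nondiabetic side. Of the adipocyte markers 2, 2 and 7 were lower in turn. Of 5 collecting duct and 2 measured adrenal cortex markers 0 were called. The part of cell composition in the lower lipid synthesis genes was not tested.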

How the data were processed

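Libraries of kidney cortex RNA started from 200 ng, with ribosomal RNA depleted and a directional kit, as the labels' protocols state. The deposited file holds raw read counts per gene, made by the authors from GRCm38 alignments. The submitters' processing notes name bcl2fastq 2.17.1.14, STAR and featureCounts; for the annotation, strand and multi-mapping settings, the labels and the file hold no statement. The lowest total of a gene in the file was 370 counts, so rarely counted genes are not in it.

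Libraries were grouped by their labels into 6 groups of 6, and all 36 entered 1 edgeR 4.0.16 quasi-likelihood fit (R 4.3.3, TMM normalization, filterByExpr, 1 coefficient per group), with 12 contrasts over 15726 genes. Calls are at a Benjamini-Hochberg adjusted p under 0.05. Adjusted p-values in the text come from this model unless a sentence names left-out libraries or the replicate block. Those come from the same test refitted in that setting. CPM values were TMM-scaled, and RPKM used the union of exons in GENCODE M21, which held 15692 of the 15730 gene IDs. The 3 noncoding RNA genes stayed in the fit. No values were imputed or dropped. The precision of a level is given by the spread between libraries. Tests were also run on simulated counts in which no library was set apart from its group. That check does not cover calls that depend on such libraries. Alternatives were DESeq2 1.42.0, other size factors and filters, only the compared groups, a replicate block, and libraries left out; the last ones with Ucp1 of 1 CPM or more, and the 3 libraries that stand apart together, were chosen after seeing the data.

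The members, the pathway lists and the marker lists were chosen with earlier results of these data known. The rule for named genes was that all members may be named, and of the further lists those called in at least 1 comparison. Of the list of other pathway genes, 3 are not reported here. Values by library were given for members that a result turns on, and ranges for the rest. Promoter windows came from RefSeq (GRCm38.p6).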

Additional observations from a re-analysis of the deposited data

Results flagged for a closer look

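In each group of 6 libraries, a gene's highest or lowest library was picked out when its gap to the nearest other library, divided by the range of the group, was above Dixon's 95% critical value for 6 samples. Of 192 groups (32 genes in 6 groups), 33 had such a library (17.2%). For independent, normally distributed values the rule picks out about 1 in 20 groups. The share over all genes is not given here, so nothing particular to the members is read from the 17.2%. Of the 33, 25 came from 4 libraries.

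Nondiabetic benzo-LXA4 replicate 3 stood above its group in 8 genes of cholesterol synthesis. Its levels in CPM were 13.7 for Mvk, 33.2 for Mvd, 43.5 for Fdft1, 91.5 for Sqle, 45 for Lss, 51.7 for Msmo1, 35.1 for Hsd17b7 and 32.6 for Dhcr7.

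Nondiabetic benzo-LXA4 replicate 1, the library with the highest brown fat markers, stood above its group in 6 genes of fatty acid metabolism. Its levels in CPM were 494 for Acly, 321 for Acaca, 2665 for Fasn, 2710 for Scd1, 74.2 for Elovl5 and 149 for Elovl6.

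Diabetic LXA4 replicate 6, where 3 noncoding RNA genes took 55.6% of the counts, stood apart in 8 genes and in both directions. It was high in Pmvk (22.7 CPM), Lss (24.8 CPM), Srebf1 (95.2 CPM), Srebf2 (124.7 CPM) and Fads2 (90.7 CPM). It was low in Idi1 (4.72 CPM), Sc5d (4.96 CPM, against 18.3 to 25.9 in the other 5 libraries) and Fads1 (23.1 CPM). Nondiabetic vehicle replicate 3, with 16.6% of its counts in the same noncoding genes, was high in Pmvk (11.7 CPM), Srebf1 (96.4 CPM) and Scap (111.5 CPM).

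Single genes stood apart in 6 further libraries. Lss was low in nondiabetic LXA4 replicate 1 (18.3 CPM), and in nondiabetic LXA4 replicate 4 Dhcr7 was high (21.8 CPM) and Acly low (136 CPM). Acaca (76.4 CPM) and Fasn (277 CPM) were high in nondiabetic LXA4 replicate 5, which had 11.4 CPM of Ucp1. Srebf1 was high in diabetic vehicle replicate 2 (54.5 CPM), Acly in diabetic benzo-LXA4 replicate 3 (156.8 CPM) and Elovl5 in diabetic benzo-LXA4 replicate 4 (50.3 CPM).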

How the results depend on the processing

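In the 4 diabetes comparisons, 94 of 111 counts of called members under the alternatives were within 1.5 times the main count and 17 were not. The other 8 comparisons had a main count of 0, which shows nothing of stability. Under vehicle the count of 3 became 1 with a filter at a mean of 5 CPM and 0 with only the compared groups in the fit. The share of all genes called there went from 5.6% to 3.99% and 2.19% in turn. Among benzo-LXA4-treated mice the count of 3 became 10 without the pair of libraries rich in noncoding RNA, 6 with DESeq2, 6 with only the compared groups, 5 without the 3 libraries that stand apart and 1 without the libraries with Ucp1 (the last 2 chosen after seeing the data). The share of all genes called moved with it, from 4.06% to 12.1%, 6.84%, 12%, 8.59% and 1.76% in turn. For LXA4 in diabetic mice the count of 0 became 2 with DESeq2. The cause was not tested. With 1 library of the compared groups left out, the counts ran from 0 to 4 under vehicle and 12 to 15 among LXA4-treated mice. They ran from 2 to 6 among benzo-LXA4-treated mice and 17 to 20 averaged, and were 0 elsewhere. The shares of all genes called in these fits are not given here. Libraries of other groups also matter through the shared spread. Without the brown fat library 18 members were called among LXA4-treated mice, with 27.8% of all genes, against 27.7% with all libraries. The fit of the compared groups only was not run for the averaged comparison. Replicate numbers did not pair the libraries: deviations of same-numbered libraries correlated at 0.0024 on average (29 of 90 pairs over 0.1). With the number as a replicate block, 3, 15, 3 and 18 members were called in the diabetes comparisons, with Insig1 in place of Pmvk (adjusted p = 0.0699, edgeR) among LXA4-treated mice, and 0 elsewhere. The all-gene calls under vehicle were 541 higher and 340 lower, and 256 and 86 with only the compared groups. Levels are least precise in the shallowest library, diabetic LXA4 replicate 6, at 8896193 counts.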
